A study of Drosophila melanogaster with 2 samples.

Results

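Intronic peaks near a start site were the peaks of a Hand chromatin immunoprecipitation whose summit lay inside a protein-coding gene of Drosophila melanogaster, outside every annotated exon, more than 500 bp and at most 3000 bp from the nearest protein-coding transcription start site. Of the 3310 peaks that passed the authors' reproducibility threshold on the dm6 build, 629 (19.0%, 95% Wilson interval 17.7% to 20.4%) met this rule. The rule used position alone, so peak signal, replicate behaviour, host genes and sequence are measurements it did not use, while the distance from the start site and the intronic location are not findings. The series held 1 group, whole embryos of mixed sex aged 6 to 24 hours from a stable transgenic Drosophila line carrying Hand with green fluorescent protein at its C terminus. Chromatin sheared by sonication to 200 to 800 bp was precipitated through the fluorescent tag and sequenced, in biological replicates 2 and 3. No untagged or untreated embryos were among the samples, so no contrast between conditions was possible, and in whole embryos a peak in more cells and a stronger peak per cell cannot be told apart.

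Hand is a basic helix-loop-helix transcription factor of the fly heart, the pericardial cells, the lymph gland and the circular visceral muscle, and binds E-box sequences as a dimer with partners such as Daughterless. Introns close to a start site are a common place for enhancers in the compact fly genome, where long first introns of regulatory genes carry many of the elements that set tissue and time of expression. A peak there may lie between alternative promoters of the same gene, or inside a gene that merely holds the promoter of a neighbour.

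The sequences under the strongest of these peaks are shown first, because they let the letters under the highest signals be read directly; they are richer in A and T than the weaker peaks. Each is the window of 50 bp on either side of the summit, on the plus strand of dm6. Capitals mark matches on either strand to 4 sets of letters. The E-box was searched as CANNTG and the Mef2 word by its consensus. Any of 4 words counted as a forkhead match, among them GTAAACA in the first place. The other forms of that word were ATAAACA with a different start, the form GTAAATA with a different end, and finally ATAAATA with both changes. For GATA factors 4 words counted as well, among them AGATAA in the first place. The other forms were AGATAG with a different end, the form TGATAA with a different start, and finally TGATAG with both changes. A Mef2 match can contain a forkhead word, so the word sets overlap.

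ush intron, chr2L:481015-481115: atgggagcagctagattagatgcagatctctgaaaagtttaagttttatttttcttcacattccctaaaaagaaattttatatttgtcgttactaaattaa

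CG11050 intron, chr2L:6612656-6612756: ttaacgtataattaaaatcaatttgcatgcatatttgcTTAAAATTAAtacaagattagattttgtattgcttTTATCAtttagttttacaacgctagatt

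Trl intron, chr3L:14759457-14759557: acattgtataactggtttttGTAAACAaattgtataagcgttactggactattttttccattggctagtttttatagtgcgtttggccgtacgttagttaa

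CG32772 intron, chrX:4910317-4910417: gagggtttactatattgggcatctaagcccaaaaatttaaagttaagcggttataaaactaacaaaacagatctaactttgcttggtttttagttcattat

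Tlk intron, chrX:3742170-3742270: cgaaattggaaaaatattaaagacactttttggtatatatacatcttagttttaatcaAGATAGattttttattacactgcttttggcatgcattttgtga

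Lk6 intron, chr3R:11761010-11761110: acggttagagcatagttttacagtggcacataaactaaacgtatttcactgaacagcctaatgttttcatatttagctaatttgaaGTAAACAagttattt

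None of these 6 windows held an E-box (0 in each). Their A or T content ran between 67.3% (Trl) and 78.2% (CG11050). A forkhead word stood in the windows of Trl and Lk6 and a GATA word in those of CG11050 and Tlk, while the windows of ush and CG32772 held no marked word.

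The 2 libraries did not look alike at the tagged gene itself. A window of 90 kb around Hand held 4 peaks of the full replicate 2 list and 36 of the full replicate 3 list, where windows of that length averaged 20.2 in both. The labels give the tagged line for both, and whether replicate 2 carried the tagged protein as replicate 3 did is not settled by the peak lists and was not tested. A like value in replicate 2 is therefore no separate evidence that a peak is Hand's. The thresholded list pools both libraries, so counts and shares of the set are given beside the same values in the 3310 strongest peaks of each replicate alone where these were computed. The value of replicate 3 is the one without replicate 2. Depth of sequencing is not given in the sources used here, so no counting error per peak can be stated.

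The intronic set was the same size in either library. Of the 3310 strongest peaks of each replicate, 630 met the rule in replicate 2 and 630 in replicate 3 (19.0% in both). The sequence that meets the rule covered 14.5 Mb, or 10.8% of the 6 chromosome arms, so these peaks stood at 43.4 per Mb, with 43.4 per Mb in replicate 2 and 43.4 per Mb in replicate 3. Promoter sequence, within 500 bp of a start site, had 107 peaks per Mb, and introns more than 3000 bp away had 15.3 per Mb. The same 2 densities averaged 108 ± 1.38 and 15.04 ± 0.312 per Mb over the replicates' own lists (SD, n = 2), so the order of the 3 classes did not depend on the library. No test across replicates was run, since with 2 of them the smallest p of an exact sign-flip test is 0.5. In the authors' pooled list of 30000 ranked peaks, 5074 met the rule. Of those 12.4% were thresholded, where 3310 of all 30000 were. The share was 19.2% of promoter, 7.10% of far intronic, 7.66% of intergenic and 2.95% of exonic peaks. The thresholded peaks were the strongest of the pooled list, so these shares restate rank of signal.

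The peaks thinned out with distance on both sides of the start site. Downstream, the density was 60.9 per Mb at 500 to 1000 bp (154 peaks), 50.6 at 1000 to 1500 bp, 39.3 at 1500 to 2000 bp, 28.6 at 2000 to 2500 bp and 25.6 at 2500 to 3000 bp (38 peaks). Upstream, it was 69.5 per Mb at 500 to 1000 bp (91 peaks), then between 34.4 and 38.9 per Mb out to 2500 bp, and 19.5 per Mb in the outermost 500 bp (13 peaks). In the nearest upstream bin the replicates' own lists gave 72.1 ± 8.10 per Mb, and in the nearest downstream bin 59.3 ± 1.68 per Mb (SD, n = 2 each). In the outermost bins they gave 21.0 ± 2.13 per Mb upstream and 29.3 ± 2.38 per Mb downstream (SD, n = 2 each). Distance is what the rule selected on, so these densities describe the set and support nothing further.

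**Figure D1:**
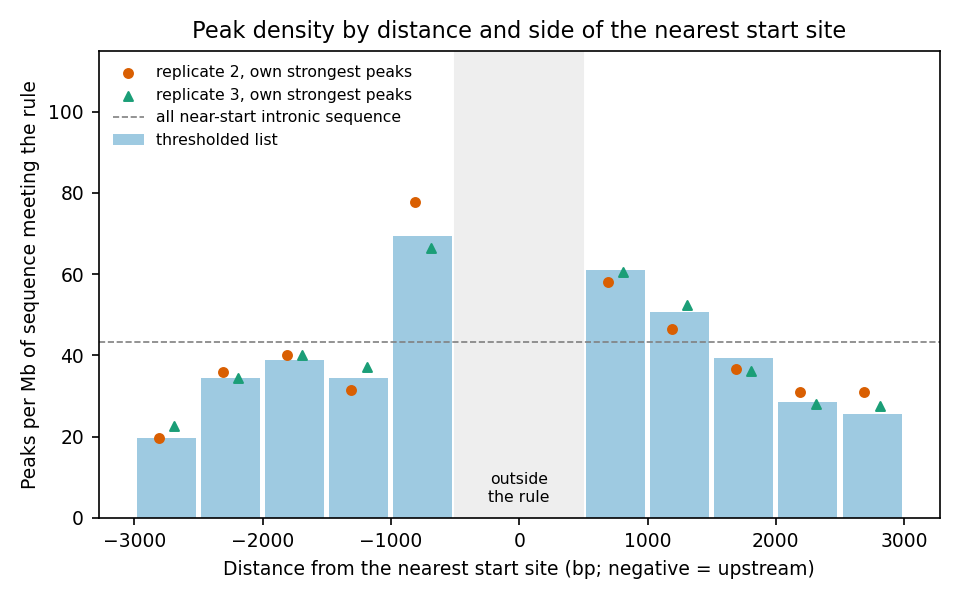
Peaks per Mb of intronic sequence that meets the rule (y axis) by distance from the nearest start site in 500-bp bins (x axis, negative upstream). Bars are the thresholded list, circles replicate 2 and triangles replicate 3 (own 3310 strongest peaks), and the dashed line is 43.4 per Mb; density is highest in both bins next to the promoter window (69.5 upstream, 60.9 downstream) and lowest in the outermost upstream bin (19.5).

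Just inside the 500 bp limit stood peaks in gce (502 bp, signal 542), jar (506 bp, 207) and CG8128 (507 bp, 240), and just outside it peaks in CG5171 (500 bp, 112), CASK (498 bp, 113) and rols (493 bp, 110). Just inside the 3000 bp limit were lili (2975 bp, 232), vib (2999 bp, 94.1) and CG5910 (3000 bp, 104), and just outside it upSET (3001 bp, 208), siz (3009 bp, 138) and puc (3026 bp, 130). At the inner limit the 3 peaks inside had the higher signals, and at the outer limit the values inside and outside overlapped.

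Most of the peaks sat in an opening intron of their own gene. In the host transcript with the nearest start among those spanning the summit, 506 of 629 summits (80.4%, 95% Wilson interval 77.2% to 83.4%) were in intron 1, 88 (14.0%) in intron 2 and 35 (5.56%) further on. Of all positions that meet the rule, sampled every 100 bp, 61.2% were in intron 1, 21.3% in intron 2 and 17.5% further on. Intron 1 held 81.1% of the peaks in replicate 2 and 81.3% in replicate 3. The introns had a median of 5281 bp and quartiles at 2476 and 11959 bp. For positions that meet the rule the median was much the same, 5096 bp, with quartiles at 1698 and 13316 bp. Of the introns of the peaks 18.6% were under 2000 bp, beside 28.0% of positions. The nearest start site belonged to a host gene for 574 peaks (91.3%, 88.8% to 93.2%), beside 78.4% of positions, and to another gene for 55 (8.74%).

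Side of the start site did not set the peaks apart from the sequence they could occupy. Of the 629 summits, 429 (68.2%, 64.5% to 71.7%) were downstream of the nearest start site and 200 were upstream, and of all positions that meet the rule 67.9% were downstream. The downstream share was 66.7% in replicate 2 and 67.9% in replicate 3. Among the upstream peaks, 160 were upstream of a start site of their own host gene, that is, between alternative promoters, 25.4% of all the peaks beside 17.9% of positions.

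A peak at the neighbouring promoter was more common beside these summits than beside intronic sequence at large. At the start site nearest to the peak, another thresholded summit lay within 500 bp for 166 of 629 (26.4%, 23.1% to 30.0%), beside 13.2% of positions that meet the rule and 12.4% of all 19252 protein-coding start sites. The share was 28.4% in replicate 2 and 25.9% in replicate 3, each within its own list, and 23.4% (19.98% to 27.2%) for far intronic peaks. It was 31.7% (21.6% to 44.0%) in the 63 strongest members and 24.8% (20.4% to 29.9%) in the 314 weakest, with overlapping intervals. Another thresholded summit of any kind lay within 1000 bp for 149 peaks (23.7%), beside 20.1% of promoter peaks and 16.7% of far intronic peaks.

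No summit was within 500 bp of a messenger RNA start in the RefSeq annotation of the same assembly (0 of 629, a Wilson upper limit of 0.607%, with 3 counts of 629 being 0.477%), as was also true of all 145093 sampled positions that meet the rule, so the second annotation adds little to the rule. Of the summits, 7 (1.11%) were that close to the start of a noncoding gene, beside 1.49% of positions that meet the rule. The peak intervals, which are wider than their summits, touched an exon in 61 cases (9.70%), beside 4.41% of far intronic peaks. That of CG11050 was among the 61, and its summit fell in an intron of only 140 bp. The body of more than 1 protein-coding gene held the summit for 37 peaks (5.88%).

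The signal column is the value the authors' peak caller gave each peak, and it is not scaled between lists. It ranged from 92.6 to 2061 over the 629 peaks in the thresholded list, with a median of 135 and quartiles at 110 and 214. Promoter peaks had a median of 140 and far intronic peaks one of 131. In each replicate's own list the intronic median was 52.2 in replicate 2 and 89.4 in replicate 3, beside 53.8 and 90.9 for promoter peaks and 48.9 and 86.6 for far intronic peaks, so the order of the 3 medians was the same in both libraries, with near-start introns between promoters and far introns. The upper quartile was 214 for these peaks, 217 for promoter peaks and 176 for far intronic peaks.

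They made up 9 of the 20 strongest thresholded peaks (45.0%, 95% Wilson interval 25.8% to 65.8%), and likewise 9 of the 20 strongest in replicate 2 and 9 of the 20 strongest in replicate 3. Over the 50 strongest the share was 22% (11 peaks, 12.8% to 35.2%), and at ranks 51 to 100 it was 12% (6 peaks, 5.62% to 23.8%). Further down it lay between 17.3% and 22.4% over 5 bands of ranks, so the high share was limited to the first 20 ranks, where the interval is wide.

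The 2 strongest stood well apart. A peak in intron 1 of ush, the gene of a cofactor of GATA factors, at chr2L:480822-481341 had a signal of 2061 in the pooled list, 653 in replicate 2 and 1372 in replicate 3. Its summit was 1377 bp upstream of cbt, a zinc-finger factor gene, which also had a promoter peak. The peak in intron 2 of CG11050 at chr2L:6612398-6612912 had a pooled signal of 2029, with 729 in replicate 2 and 1296 in replicate 3, and its summit lay 1019 bp downstream of the start. These were the 2 highest peaks of each library in opposite order.

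Trl, the gene of the GAGA factor, had its strongest peak in intron 2, 1542 bp downstream of a start, at chr3L:14759313-14759723, with 1314 in the pooled list, 407 in replicate 2 and 921 in replicate 3. CG32772 followed with 1210 at chrX:4910192-4910559, with 412 in replicate 2 and 795 in replicate 3. Tlk, the Tousled-like kinase gene, had 1150 at chrX:3742039-3742388, 2323 bp downstream of a start, with 334 in replicate 2 and 811 in replicate 3. Lk6, which codes for a kinase related to mammalian Mnk, had 1125 at chr3R:11760875-11761240, 981 bp upstream of one of its own starts, with 324 in replicate 2 and 809 in replicate 3. All 6 peaks named so far were within the 20 strongest of each library.

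The other 9 of the 15 strongest carried pooled signals between 624 and 1098. CG9663 had 1098, HmgZ, a high mobility group box gene whose intron here also lies in HmgD, had 1044, and chif, the fly counterpart of the replication kinase subunit gene Dbf4, had 958. CG12769 had 848 and CHES-1-like, a forkhead factor gene, had 731. Then followed for, the gene of a cyclic GMP-dependent protein kinase, with 677, CG9837 with 673, CG4496 with 665 and CG9135 with 624. In every one of these 9, replicate 3 exceeded replicate 2 on the unscaled signal, from 725 against 379 for CG9663 to 394 against 230 for CG9135.

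The replicates ranked the peaks alike in part. A summit within 100 bp was in both replicates' full lists for 586 of 629 peaks (93.2%, 90.9% to 94.9%), in replicate 3 alone for 29 and in replicate 2 alone for 14. The share in both lists was much the same for far intronic peaks, 93.3% (90.8% to 95.1%). It was 90.02% for promoter, 90.4% for intergenic and 87.2% for exonic peaks. The thresholded list was itself selected by comparing these lists, so this share is no separate evidence. All 63 strongest members had a summit in both libraries, and 284 of the 314 weakest did (90.4%). Across the 586 shared peaks, which are not replicates and share each library's depth and input, the 2 signals had a rho (Spearman) of 0.67 and an r (Pearson, log2 values) of 0.77. For promoter peaks rho was 0.68 and for far intronic peaks 0.59. Signal was higher in replicate 3 for 553 of the 586, with a median log2 ratio of 0.94 and quartiles at 0.56 and 1.26, beside medians of 0.88 for promoter peaks and 0.85 for far intronic peaks. The offset was in all 3 classes, and the lists are not scaled to each other.

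**Figure D2:**
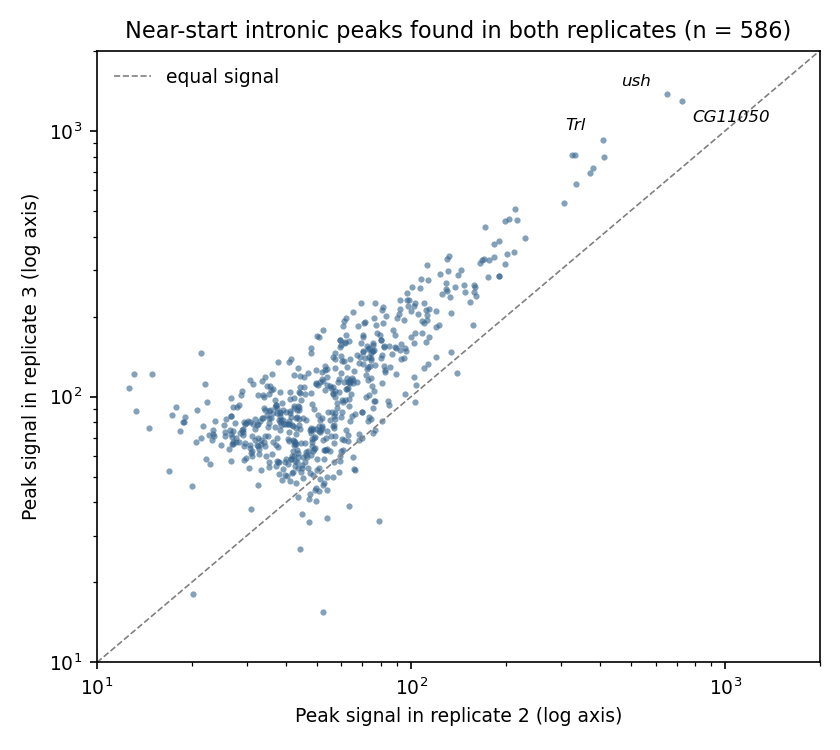
Peak signal of the 586 intronic peaks found in both replicates, replicate 2 on the x axis and replicate 3 on the y axis, both on log axes. Each point is a peak, the dashed line marks equal signal, and the 3 strongest are named by host gene; 553 points lie above the line.

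Single peaks departed far from that offset. The peak in jumu, a forkhead factor gene, had 13.1 in replicate 2 and 122 in replicate 3, a log2 ratio of 3.22, and those in CG1677 and Nak had log2 ratios of 3.10 and 3.02. At the other end, the peak in IP3K2, an inositol trisphosphate kinase gene, had 52.2 in replicate 2 and 15.4 in replicate 3, a log2 ratio of -1.76, and those in east and Xrp1 had -1.21 and -0.73. These 6 peaks were named for their ratios after the values were seen. Of the peaks with no replicate 2 summit within 100 bp, the strongest was in Stat92E (pooled signal 215, replicate 3 signal 171), the transcription factor gene of the JAK-STAT pathway. Of those with none in replicate 3, the strongest was in Sec13 (pooled signal 258, replicate 2 signal 87.6).

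The 629 peaks lay in 507 host genes, 3.64% of 13945 protein-coding genes and 5.54% of the 9156 genes that have any sequence meeting the rule. A single peak was in 394 hosts, 2 were in 89, 3 in 14, and 4 or more in 10. Hosts had far more room than other genes, with a median of 4.31 kb of sequence that meets the rule against 0.377 kb. The replicates' own lists gave 493 hosts in replicate 2 and 498 in replicate 3, of which 355 were shared, 72.0% of the replicate 2 hosts and 71.3% of the replicate 3 hosts.

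Tlk and shn held the most peaks. Tlk had 7 peaks, spread over 36960 bp with signals between 96.9 and 1150, and 7 and 9 in the replicates' own lists (replicate 2, then replicate 3). Schnurri, shn, a zinc-finger factor gene of the bone morphogenetic protein (BMP) response, also had 7, with signals between 95.4 and 401, and 7 and 6 in the same lists. CHES-1-like had 6 peaks within 14754 bp, the weakest at 145, in a gene with 10.6 kb of sequence that meets the rule, and 6 in replicate 2 and 7 in replicate 3. CG1677 (6 peaks, up to 334) and CG32264 (6 peaks, up to 396) had 35.9 and 30.2 kb of such sequence. In replicate 2 these 2 genes had 4 and 7 peaks, and in replicate 3 they had 7 and 6.

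Another 5 hosts had 4 peaks each, namely Trl, NFAT, tou, CG14434 and kirre, in order of summed signal. Those of Trl stood in only 4.34 kb of sequence that meets the rule and had signals between 100.3 and 1314, but replicate 2 alone had 2 of its strongest peaks there and replicate 3 had 4. NFAT, the gene of a transcription factor of the NFAT family, had 4 peaks between 180 and 554, and tou, which codes for a chromatin protein, had 4 between 184 and 338. Replicate 2 had 4 in NFAT, 3 in tou, 5 in CG14434 and 4 in kirre, and replicate 3 had 5, 4, 3 and 3.

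The lists of tissue and pathway genes were drawn up with earlier results of these data known, so their shares describe the hosts and support nothing further. No list was tested, and neither the 3.64% of all protein-coding genes nor the 5.54% of genes with any sequence that meets the rule is a like-for-like measure, since list genes differ greatly in how much of it they have. Per Mb of that sequence, several lists lay near the 43.4 peaks of the whole set, among them visceral muscle (44.2), contractile (42.9), Notch (42.1), ecdysone (41.5) and axon guidance (41.3), whose shares of genes are all well above 3.64%. Aside from the BMP list (130) and the chromatin list (253), the lists with a host lay between 16.5 and 76.1 per Mb. Of the 25 heart genes, 1 (4%) was a host, namely ush, with 2 peaks. The replicates' own lists reached 3 heart genes in replicate 2 and 1 in replicate 3. Hand itself had 1841 bp of sequence that meets the rule and no thresholded intronic peak, and its single such peak in the pooled list had a signal of 40.2. The partner gene da likewise had only a weak pooled peak (66.9), tin had none in any such intron of the pooled list, and the myogenic gene Mef2 had 5 weak pooled peaks (up to 56.0) in 10.3 kb. Mef2 held 6 thresholded summits, none of which met the rule.

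Other genes of the organs that express Hand were hosts in 2 of 13 cases for pericardial cells and nephrocytes, 3 of 16 for visceral muscle and 3 of 21 for blood and lymph gland. In replicate 2 the counts were 1, 3 and 2, and in replicate 3 they were 1, 2 and 2. The transcription factor gene zfh1 had a peak of 250 at chr3R:30781682-30781860 (93.0 in replicate 2, 158 in replicate 3). In neither replicate's own list of strongest peaks did a zfh1 peak meet the rule. Both of these signals were above the weakest of those lists (37.1 and 60.3), so the replicates' summits missed the rule by position, not by signal. The fusion gene kirre had 4 peaks, up to 214, the strongest nearest to the start of CG32795. In visceral muscle the FGF ligand gene ths had 158 and the adhesion gene Fas3 had 108, its peak lying nearest to the start of CG34171. In the blood list ush, zfh1 and Stat92E were the hosts. None of the 21 muscle identity genes was a host, in the thresholded list or in either replicate's own.

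Among contractile and attachment genes 5 of 25 were hosts, with 6 in replicate 2 and 5 in replicate 3. Msp300, which codes for a giant nuclear anchorage protein of muscle, had a peak of 519 in intron 12, 653 bp upstream of one of its own starts, with 198 in replicate 2 and 314 in replicate 3. The tropomodulin gene tmod had 288 and the talin gene rhea 154, both in intron 1. All 5 of these hosts had a summit in both libraries.

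Signalling pathways had a few hosts each. In the BMP list 4 of 22 genes were hosts, with 11 peaks in all, of which shn had 7, and each replicate's own list had 3 hosts. The receptor gene wit had 151 and the transducer gene Mad 109, the Mad peak having no replicate 2 summit within 100 bp. In the EGF receptor and FGF list 4 of 23 were hosts, among them the adaptor gene drk (184), ths (158) and the repressor gene aop (127). The drk peak lay nearest to the start of mars. The Notch list had 2 of 20, the coactivator gene mam (208) and the ligase gene neur (145). The Wingless and Hedgehog list had 2 of 24, hh (95.2) and the kinase gene sgg (94.0), both close to the weakest signal of the thresholded list. The sgg peak had no replicate 2 summit within 100 bp. In replicate 2 the EGF receptor and FGF, Notch, and Wingless and Hedgehog lists had 3, 2 and 2 hosts, and in replicate 3 they had 6, 2 and 3.

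Of the genes of chromatin regulation 7 of 25 (28.0%) were hosts, the highest share of any list in the thresholded peaks, but 5 of 25 in each replicate's own list, where the ecdysone and early response list, with 6 of 23, was higher in both. They had 12 peaks in 0.0474 Mb of sequence that meets the rule. The hosts were Trl (4 peaks, strongest 1314), the Polycomb group gene ph-p (325), the zinc-finger gene lola (196), kis, psq, osa and trx, the last 4 between 99.8 and 172. The psq peak had no replicate 2 summit within 100 bp. Among ecdysone and early response genes 5 of 23 were hosts, led by kay, the gene of Fos (211), the nuclear receptor gene Hr4 (115.4) and Atf3 (112).

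**Figure D3:**
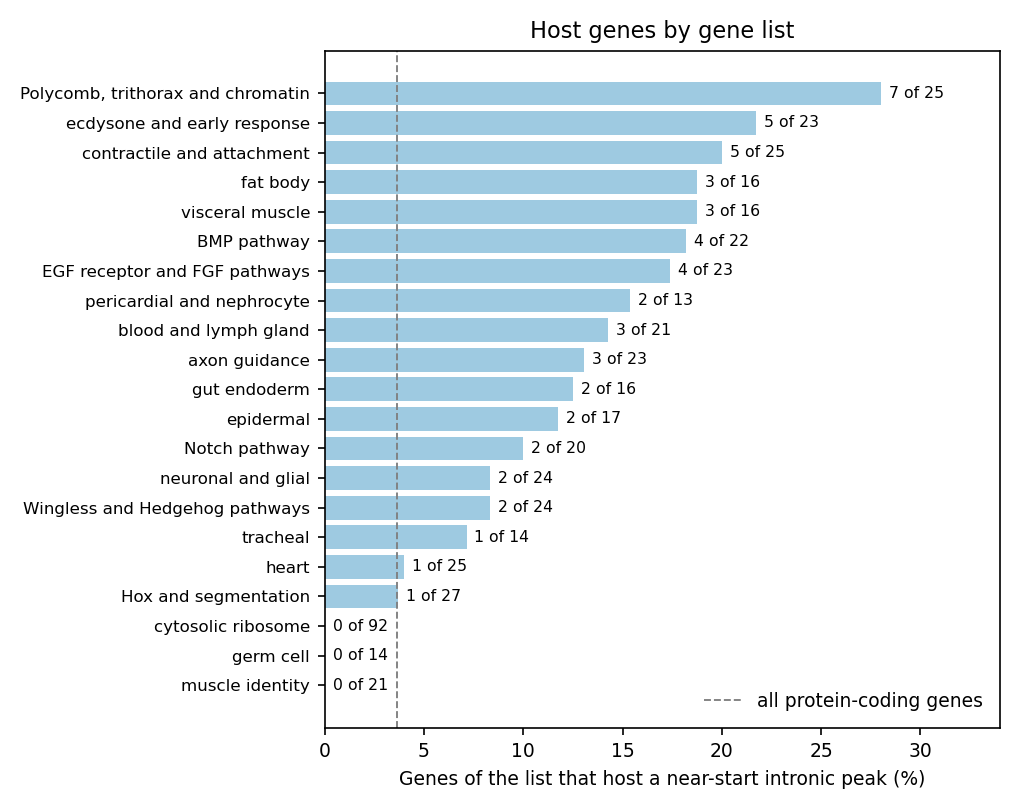
Share of the genes of each list that host at least 1 of the intronic peaks (x axis, %), with the counts beside the bars and 1 bar per list. The dashed line is the 3.64% of all protein-coding genes; bars differ in how much intronic sequence their genes have, and the chromatin list (7 of 25) is longest while the ribosomal, germ cell and muscle identity lists are at 0.

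Markers of other embryonic cells were hosts as well. The neuronal and glial list had 2 of 24, the RNA-binding protein genes elav (238) and fne (114.5), and the axon guidance list 3 of 23, fra (168), NetB (125) and ena (106). The strongest fra peak lay nearest to the start of CG33752 and the NetB peak nearest to that of hog. The tracheal list had 1 of 14, rib (94.98), and the epidermal list 2 of 17, the fascin gene sn (156) and the transcription factor gene grh (140). The gut endoderm list had 2 of 16, bowl (140) and Hnf4 (101.1), and the fat body list 3 of 16, the lipase gene bmm (462), the perilipin gene Lsd-2 (225) and mdy (96.0). The mdy peak lay nearest to the start of CG13280. Neither it nor the strongest bowl peak had a replicate 2 summit within 100 bp. Of the 27 Hox and segmentation genes 1 was a host, Abd-B (199). None of 14 germ cell genes and none of 92 genes of the cytosolic ribosome was a host in the thresholded list, while replicate 2 had 1 germ cell host and replicate 3 had 0. Replicate 2 had 3 neuronal, 3 axon guidance, 3 fat body and 2 Hox and segmentation hosts, and replicate 3 had 1, 2, 2 and 1. The tracheal, epidermal and gut counts were the same in both replicates as in the thresholded list. Only 50 of the 92 ribosomal genes had any sequence that meets the rule, 0.0133 Mb in all, so the others could not be hosts. The 14 germ cell genes had even less of it, 0.0123 Mb in all. With so little sequence, a count of 0 says little of either list.

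Chromosome X was the densest arm. It had 151 peaks, 52.0 per Mb of sequence that meets the rule, with 50.3 per Mb in replicate 2 and 52.4 per Mb in replicate 3. Arms 2L, 2R, 3L and 3R had between 39.8 and 44.1 per Mb in the thresholded list and between 39.5 and 44.6 per Mb in either replicate. Arm 4 had 0 thresholded peaks in 0.128 Mb, and 1 in replicate 3.

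Summits were rich in A and T and were flanked by sequence poorer in both than intron sequence at large. The window of 50 bp on either side of the summit averaged 66.5% A or T (SD 9.15 over 629 windows). Windows centred 200 to 400 bp away on both sides averaged 56.7%, windows 800 to 1000 bp away averaged 59.1%, and all 127405 non-overlapping tiles of that width in sequence that meets the rule averaged 60.8%. In replicate 2 the 3 zones were 64.7%, 56.9% and 59.3%, and in replicate 3 they were 66.7%, 57.0% and 59.3%. Far intronic peaks had 66.7%, 55.9% and 59.96%, and promoter peaks had 62.7%, 56.9% and 56.2%, so promoter summits stood less far above their flanks. Unlike the intronic summits and the tiles, the windows beside a summit were not held to the rule, so they can take in exons or promoter windows. How much that sets the contrast was not tested. Stronger peaks had more A and T, at 72.1% in the 63 strongest, 68.5% in the next 252 and 63.7% in the 314 weakest. Across the 629 peaks, signal and A or T content had a Spearman's rho of 0.35, beside 0.31 across promoter peaks and 0.18 across far intronic peaks.

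**Figure D4:**
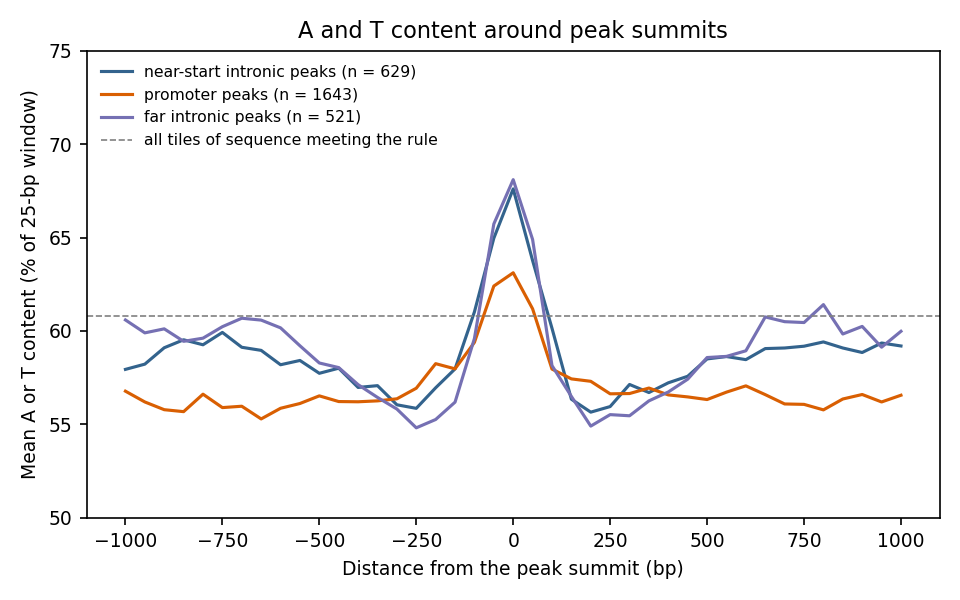
Mean A or T content in 25-bp windows (y axis, %) by distance from the summit (x axis, bp) for 629 near-start intronic, 1643 promoter and 521 far intronic peaks. The dashed line is the 60.8% mean of all tiles of sequence that meets the rule; both intronic curves rise above it at the summit and dip below it on either side.

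Words of 4 factor classes were more common at the summits than beside them. Words were sought on both strands in the window of 50 bp on either side of the summit and in like windows centred 400 bp to the left and right, and no enrichment test was run over regions. The flank windows were not held to the rule and can take in exons or promoter windows. A forkhead word was in 176 windows (28.0%, 24.6% to 31.6%), against 14.9% of left flanks, 16.4% of right flanks and 17.1% of all tiles. In replicate 2 it was 25.6% against 16.2% of left flanks, and in replicate 3 it was 28.3% against 14.3%. The Mef2 consensus was in 51 windows (8.11%, 6.22% to 10.5%), against 2.70% of left flanks and 4.22% of tiles, with 6.98% against 3.02% in replicate 2 and 8.25% against 3.81% in replicate 3. A GATA word was in 163 (25.9%, 22.6% to 29.5%), against 19.1% of left flanks and 19.4% of tiles, with 24.3% against 18.4% in replicate 2 and 24.9% against 18.9% in replicate 3. The homeodomain word TAATTA was in 71 (11.3%), against 6.995% of left flanks and 8.39% of tiles, with 9.37% against 5.87% in replicate 2 and 10.95% against 6.03% in replicate 3. All of these words are rich in A and T, as the summits are, and the part of base composition in their frequency was not tested.

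Forkhead and GATA words had like shares in far introns and lower ones at promoters. Far intronic summits held a forkhead word in 28.2%, a GATA word in 28.0% and the Mef2 consensus in 6.33%. Promoter summits held them in 21.5%, 18.9% and 6.39%. In the 63 strongest intronic peaks the GATA share was 36.5%, the forkhead share 23.8% and the Mef2 share 7.94%.

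E-boxes were less common at the summits than beside them. CANNTG, which takes in the more specific words CATCTG and CATATG, was in 230 windows (36.6%, 32.9% to 40.4%), against 41.0% of left flanks, 44.2% of right flanks and 40.6% of tiles. It was 36.0% against 41.9% of left flanks in replicate 2 and 36.7% against 40.8% in replicate 3, and it was in 16 of the 63 strongest (25.4%). CATCTG, the word searched for Hand with Daughterless, was in 16 windows (2.54%), against 3.82% of left flanks and 3.76% of tiles, and in 0 of the 63 strongest. Far intronic summits had an E-box in 35.1% and promoter summits in 34.5%. The absence of these letters from a window says nothing of whether the protein was there. The summits were richer in A and T than the flanks, and the part of base composition in the E-box shares was not tested.

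Words of repeats ran the opposite way and peaked on both sides of the summit. GAGAG, a word of the GAGA factor, was in 12.2% of summit windows, against a mean of 20.3% in windows 200 to 400 bp away, 15.2% in windows 800 to 1000 bp away and 11.2% of all tiles. In replicate 2 the 3 zones were 15.6%, 20.4% and 14.6%, and in replicate 3 they were 11.6%, 20.3% and 15.03%. CACACAC was in 2.86% of summit windows, against 8.72% at 200 to 400 bp, 5.62% at 800 to 1000 bp and 4.09% of tiles, with 3.33%, 9.60% and 5.74% in replicate 2 and 2.70%, 8.39% and 5.24% in replicate 3. At least 1 of the flanks at 400 bp held GAGAG for 219 of the 629 peaks (34.8%) and CACACAC for 108 (17.2%). Far intronic peaks had the same order of zones, with GAGAG at 11.9%, 18.6% and 12.5% and CACACAC at 3.07%, 8.25% and 5.02%. Promoter peaks had 15.3%, 17.4% and 12.2% for GAGAG and 4.02%, 6.23% and 4.12% for CACACAC. The windows beside the summits were not held to the rule and were poorer in A and T than the summits. The part of either in these shares was not tested.

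A flank is shown to make this pattern visible, that of the strongest printable peak with both words in a single flanking window, chosen after the profiles were seen. It lies 400 bp below the summit of a peak of signal 542 in intron 1 of gce, the gene of a basic helix-loop-helix receptor for juvenile hormone, has 53.5% A or T, and capitals mark GAGAG and CACACAC on either strand. The window also lies within 500 bp of the start of gce, so it is promoter-window sequence and does not itself meet the rule.

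gce flank, chrX:15298057-15298157: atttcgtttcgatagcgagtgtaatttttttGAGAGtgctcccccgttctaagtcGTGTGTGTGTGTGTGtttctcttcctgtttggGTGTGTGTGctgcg

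**Figure D5:**
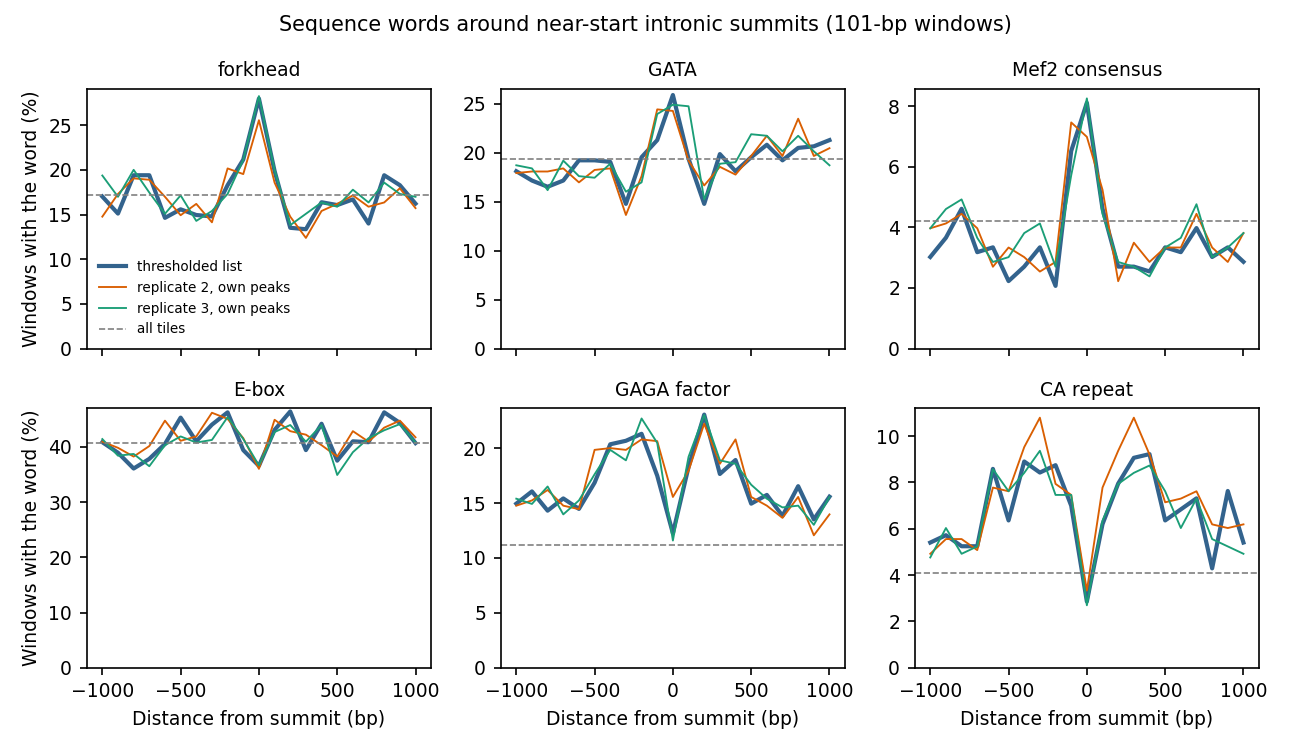
Share of windows of 50 bp on either side that hold each of 6 sequence words (y axis, %; each panel has its own scale from 0) by distance from the intronic summit (x axis, bp, every 100 bp). Thick lines are the 629 thresholded peaks, thin lines each replicate's own strongest intronic peaks, and dashed lines all tiles of sequence that meets the rule; in the thresholded list forkhead, GATA and Mef2 words are highest at the summit and E-boxes are lower there (36.6%) than in the windows 100 bp to either side (39.4% and 43.1%), though not lower than 800 bp to the left (36.1%), while in replicate 2 the GATA and Mef2 shares 100 bp to the left (24.4% and 7.46%) are slightly above those at the summit (24.3% and 6.98%), and the GAGA factor word and CA repeat are highest 200 to 400 bp to either side.

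The remaining 11 words were rare or differed little. ACCGGAA, an ETS word, was in 0 summit windows (Wilson upper limit 0.607%, with 3 counts of 629 being 0.477%), against 1.27% of left flanks, 0.318% of right flanks and 1.70% of promoter summits. TATCGATA, the DREF word, was in 1 window (0.159%), against 1.95% of promoter summits. Words of Twist (CATATG, 5.25%), the T-box class (AGGTGT, 3.66%), AP-1 (TGANTCA, 3.34%), STAT (TTCNNNGAA, 3.02%), Tinman (TCAAGTG, 1.27%), Su(H) (GTGGGAA, 0.954%), Zelda (CAGGTAG, 0.318%) and Grainyhead (AACCGGTT, 0.318%) were in under 6% of windows. A run of 7 A bases or 7 T bases (AAAAAAA) was in 14.6%, against 12.4% of left flanks and 11.2% of tiles. Among all 6-letter words in at least 60 summit windows, AATATT had the greatest ratio of summit to flank. It was in 19.1% of summit windows, against a mean of 5.33% over both flanks. TTTAAA (18.8% against 5.80%) and ATATTA (20.5% against 6.60%) followed. These are words of A and T alone. In the same order, they were in 10.5%, 11.9% and 10.9% of tiles, closer to the summits than the flanks were. Far intronic summits held them in 18.04%, 20.9% and 23.8%, and promoter summits in 14.2%, 17.2% and 15.6%. The limit of 60 windows was set on the summits, so words common in the flanks alone could not enter the ranking.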

How the data were processed

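The deposited listing of derived files gives, for each replicate, a ranked peak list made from its own alignments and 1 further input shared by both replicates. The pooled list came from both alignments and that input, and the thresholded list from a reproducibility (IDR) step over the 3 lists. The labels name a possible control experiment, but the listing does not call the shared input a control. For aligner, peak caller, settings and IDR threshold, the text of the sources used here states nothing. The deposited signal is what the caller assigned to a peak, and the deposited q-value, written as −log10, was not used. All 3310 thresholded peaks were the strongest of the pooled list. The dm3 lists were not used.

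The summit was start plus the deposited offset. Positions were compared with Ensembl release 115 on the 6 main arms (13945 protein-coding genes), and exons of every annotated gene excluded a summit. Sequence came from the RefSeq genome of the same assembly. Words were sought as spelled in the text, the Mef2 consensus by name. Far intronic peaks lay over 3000 bp from a start site. The 95% Wilson intervals cover counting alone and treat peaks as independent, which neighbours are not. No p-value was computed, since 1 group with 2 replicates allows none below 0.5 and peaks are not replicates.

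The members, the 21 gene lists and the 19 words were chosen with earlier results of these data known. Of the names in the lists, 7 were matched through a synonym and 3 were left out unmatched. Named were hosts of the 15 strongest members, the 8 hosts with the most members, 3 hosts per list, Hand, da, tin and Mef2, and peaks at the limits of the rule. The word search was tested on words planted in random sequences. Location, nearest start site and host genes were checked at positions drawn from the real genome, and Wilson intervals against scipy. Programs used Python 3.11.15, numpy 2.4.6, scipy 1.17.1 and matplotlib 3.10.9.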

Additional observations from a re-analysis of the deposited data

How the results depend on the processing

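Taking each replicate alone, the count of intronic peaks was 630 and 630, the median signal ran from 52.2 to 89.4, the share in both lists from 86.0% to 87.8%, the downstream share from 66.7% to 67.9%, the intron 1 share from 81.1% to 81.3%, the promoter peak share from 25.9% to 28.4%, hosts from 493 to 498, A or T from 64.7% to 66.7%, words above the left flank from 10 to 12 of 19 (10 in the pooled list), and list genes that were hosts from 44 to 49 (48 pooled). With exons of protein-coding genes only, the count was 640. Among the 1655 strongest peaks it was 311 by construction, in 264 hosts and 26 list genes, with a median signal of 214, 95.8% in both lists, 69.4% A or T, and a promoter peak in 16.7%, where promoter peaks were fewer by construction too. At 1000 to 3000 bp there were 384 peaks in 319 hosts, 95.1% of them in both lists. Summits matched within 50 bp gave 67.9% in both lists, and within 250 bp 99.7%. Promoter windows of 200 bp and 1000 bp gave 14.9% and 34.02%. With 100 bp on each side, A or T was 64.5%. Among the main results, 55 values under an alternative, some of them among those above, moved by less than their interval, 1.5 times a count or the spread between replicates. Another 20 did not stay within these limits. The number of reads behind a peak is unknown and limits every signal. No paired analysis was possible because there was 1 group.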
